A study of Mus musculus with 6 samples.

Results

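The genes described here serve the endoplasmic reticulum (ER) of cultured lung mesenchymal stromal cells (LMSCs): chaperones, disulfide enzymes, sensors of unfolded protein, the degradation and translocation machinery, collagen-modifying enzymes and carriers of secreted cargo. Members were found by gene symbol, and all 40 were present among the 34745 genes of the table. RNA-seq was performed on LMSCs of MMTV-PyMT mice, which carry the polyoma middle T oncogene under the mouse mammary tumor virus promoter, active mainly in mammary epithelium, and whose mammary tumors seed the lungs. There were 6 libraries, 2 of A-LMSCs (adenoma stage, mice of 6 to 7 weeks per the labels), 2 of PM-LMSCs (pre-metastatic stage, 9 to 10 weeks) and 2 of M-LMSCs (metastatic stage, 13 to 14 weeks). The sample titles call these groups E-LMSCs, L-LMSCs and M-LMSCs in the same order, and the study's names are used here. All mice carried the transgene, on the FVB background, no library of mice without it was analysed here, and the A-LMSCs served as the reference. The cells were adherent lung cells from which CD45+ cells were removed by immunomagnetic separation, cultured to passage 3, and stage could not be told apart from age. The study counts its libraries of a stage as separate mice, while the labels give only replicate numbers, and p-values measure the spread between these libraries. The study's text gives somewhat older ages than the labels for the adenoma and pre-metastatic stages, and the same age for the metastatic stage.

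Fibroblastic cells export large amounts of collagen, and the procollagen chains are made, folded and modified in the ER. Prolyl and lysyl hydroxylases act on the chains before the triple helix closes, Serpinh1 (HSP47) binds the folded helix, and Mia3 (TANGO1) helps to load the bulky procollagen into COPII carriers. When unfolded protein builds up, the membrane sensors Ern1 (IRE1), Eif2ak3 (PERK) and Atf6 signal to the nucleus, where spliced Xbp1 and cleaved Atf6 activate chaperone and degradation genes. The splicing of Xbp1 and the cleavage or phosphorylation of these proteins are not seen in gene-level values.

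Much of that nuclear response is known to run through short promoter elements, which were searched for on both strands from 250 bases before to 50 after the RefSeq start (GRCm38.p6, the reference sequence of another strain, C57BL/6J). The elements were the ER stress response element (ERSE, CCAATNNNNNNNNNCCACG), ERSE-II (ATTGGNCCACG) and the unfolded protein response element (UPRE, TGACGTGG). The last holds CGTGG, the reverse complement of the CCACG in the others, so that matches can share bases. Windows were found for 33 members, Ero1l among them under its RefSeq symbol Ero1a. No window was found for Hyou1, Manf, Atf6, Derl1, Sec61a1, Plod2 and Fkbp10. An ERSE was found in 8 of the 33 members (24.2%), compared with 0.119% of all 32851 windows. An ERSE-II was found in 2 members (6.1%) and 0.037% of windows, and a UPRE in 2 (6.1%) and 0.676% of windows. The elements are known from genes of this response and many members were listed as such genes, so these shares are a description and no independent finding. Members were counted as genes, and P3h1 had 2 windows. The matched ERSE and ERSE-II sites are shown because they are the elements found among the chaperone, disulfide and degradation genes. Each reads 5′ to 3′ on the strand given, and capitals mark the fixed letters.
Hspa5 (chr2:34772025-34772043, plus strand): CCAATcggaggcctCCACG
Hsp90b1, farther site (chr10:86705638-86705656, minus strand): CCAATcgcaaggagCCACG
Hsp90b1, nearer site (chr10:86705533-86705551, plus strand): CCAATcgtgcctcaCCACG
Canx (chr11:50325800-50325818, minus strand): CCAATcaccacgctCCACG
Dnajc3 (chr14:118937827-118937845, plus strand): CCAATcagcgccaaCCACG
Creld2 (chr15:88819520-88819538, minus strand): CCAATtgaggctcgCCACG
Pdia6 (chr12:17266491-17266509, plus strand): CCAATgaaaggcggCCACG
Syvn1 (chr19:6046532-6046550, plus strand): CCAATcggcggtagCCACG
Derl3 (chr10:75893242-75893260, minus strand): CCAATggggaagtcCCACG
Dnajb11, ERSE-II (chr16:22857852-22857862, plus strand): ATTGGcCCACG
Herpud1, ERSE-II (chr8:94386377-94386387, plus strand): ATTGGgCCACG

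The sites were spread unevenly over the roles. Of the members with a window, 6 of 8 chaperones and co-chaperones, 3 of 5 degradation genes and 1 of 5 disulfide genes had an ERSE or ERSE-II, whereas 0 of 7 collagen-modifying genes, 0 of 3 export genes, 0 of 3 sensors and 0 of 2 translocation genes did. The UPRE matches were in the export genes Sec24d (chr3:123267470-123267477) and Sec23a (chr12:59012004-59012011), the latter just after the start. A match is a description of letters and does not show that a factor binds there. The bases before the starts of Hsp90b1 and Creld2, the former with a pair of facing ERSEs, are shown on the gene's strand, up to the first annotated exon base, with capitals for the ERSEs.
Hsp90b1 (chr10:86705510-86705694, minus strand): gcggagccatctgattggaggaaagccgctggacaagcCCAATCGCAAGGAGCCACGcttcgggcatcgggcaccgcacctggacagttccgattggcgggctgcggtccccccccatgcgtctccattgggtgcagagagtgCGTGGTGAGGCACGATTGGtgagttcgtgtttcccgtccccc
Creld2 (chr15:88819396-88819645, plus strand): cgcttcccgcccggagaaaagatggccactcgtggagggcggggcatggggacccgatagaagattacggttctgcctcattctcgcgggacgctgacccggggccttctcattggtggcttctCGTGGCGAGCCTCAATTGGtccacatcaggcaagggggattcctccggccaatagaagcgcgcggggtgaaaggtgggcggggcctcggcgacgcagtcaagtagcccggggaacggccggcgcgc

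Levels were given as FPKM, mapped fragments scaled to gene length and to the library total, and the depth estimated from the spacing of low values was 20.8 and 17.5 M fragments (M, mega) in A-LMSCs, 14.8 and 15.9 M in PM-LMSCs, and 16.5 and 16.5 M in M-LMSCs. The labelled cell type was first checked against markers. Fibroblast genes were abundant in every library, with Col1a1 between 760.6 and 1472 FPKM and Vim between 296 and 365 FPKM. Of the 14 fibroblast and stromal markers, limma called 0 in M-LMSCs against A-LMSCs. With the replicate number as a block it called 2, beside 3.92% of all genes tested. These were the small matrix proteoglycans Dcn (log2 fold change 1.13, adjusted p = 0.0239) and Lum (1.90, adjusted p = 0.0419), both higher. Of the markers by which LMSCs are defined, Itgb1 (CD29) lay between 283 and 466 FPKM, Cd44 between 12.7 and 15.6 FPKM and Ly6a (Sca1) between 1.99 and 5.74 FPKM. Ptprc, which encodes CD45, did not exceed 0.0987 FPKM.

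Other cell type markers differed between the stages. The 12 haematopoietic markers summed to 133 and 125 FPKM at the adenoma stage, 168 and 74.6 at the pre-metastatic stage and 406 and 291 at the metastatic stage. Lyz2, the macrophage and neutrophil lysozyme, was the most abundant of them at up to 362 FPKM, and 10 of the 12 were highest in both M-LMSC libraries. Only 6 of the 12 averaged at least 1 FPKM and were tested. All 6 lay above both A-LMSC libraries in M-LMSCs, as did 27.1% of all genes tested. Of the 6, limma called 0 higher in M-LMSCs than at the adenoma stage, and 5 with the replicate number as a block, beside 3.92% of all genes tested. The 10 mesothelial markers, led by Upk1b, summed to 124 and 184 FPKM at the adenoma stage, 306 and 431 at the pre-metastatic stage and 206 and 515 at the metastatic stage, and 8 of the 10 were lowest in both A-LMSC libraries. Of the 9 tested, 7 lay above A-LMSCs in all 4 later libraries, as did 10.7% of all genes tested. Limma called 0 of the 9 higher in both later stages without the block and 8 with it, beside 2.05% of all genes tested with it. Krt19, a keratin, went the other way, at 13.8 and 17.3, 8.09 and 9.28, and 4.92 and 4.49 FPKM in the same order, and was called lower in both later stages (adjusted p = 0.0454, limma). The 12 epithelial markers summed to at most 4.41 FPKM, with Epcam at 0 in A-LMSCs and PM-LMSCs and at 0.326 and 0.473 FPKM in M-LMSCs. That sum leaves out the keratins Krt8, Krt18 and Krt19, which were placed in the mesothelial list, and Krt7, placed in the tumor list. The 8 endothelial markers summed to at most 2.72 FPKM. The 1 of them tested was higher in M-LMSCs than at the adenoma stage (log2 fold change 0.61). Its adjusted p was 0.0998 from limma and 0.0285 with the block. Of the 5 tumor markers, Erbb2 was highest at 5.41 to 7.06 FPKM, and the milk genes Csn2 and Wap were at 0. Of the 2 tumor markers tested, Erbb2 was lower in every later library than in A-LMSCs (log2 fold change −0.23 for both later stages). The other, which was neither Csn2 nor Wap, was higher in every later library (0.86). Whether that rise came from tumor cells was not tested. Limma called 0 of these 2 markers without or with the block, though with the block each had an unadjusted p under 0.05. The plasma cell genes Mzb1 and Tnfrsf17 were at 0 in all 6 libraries, and Sdc1, also a stromal gene, gave nearly all of that list's sum. These marker shifts move with the later stages, and their part in the results below was not tested. In bulk RNA, fewer cells of a type and less of the RNA per cell cannot be told apart.

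**Figure D1:**
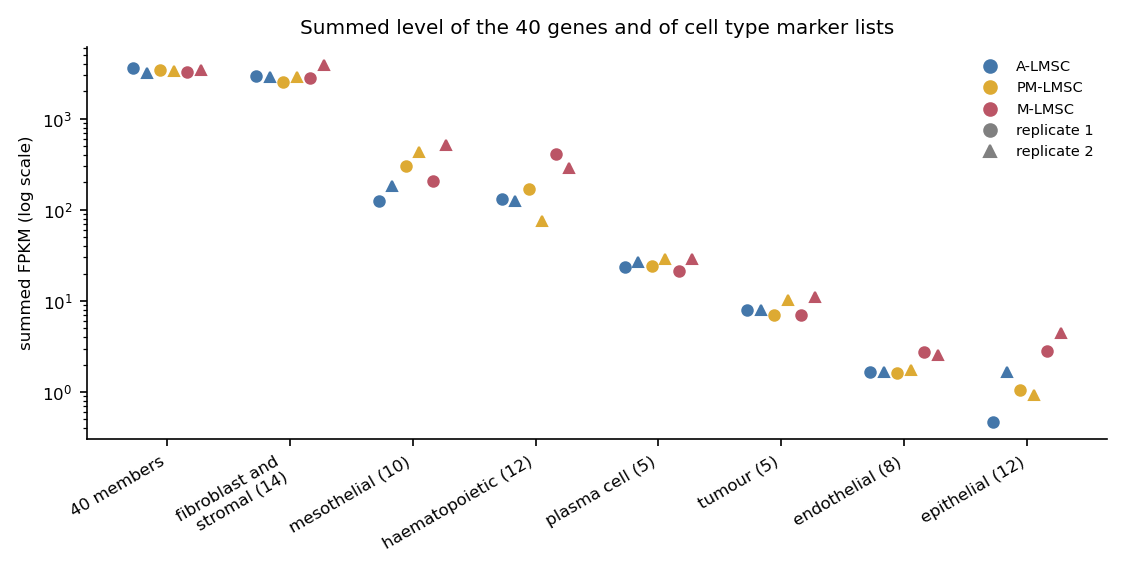
Summed FPKM (log axis) of the 40 ER and collagen-processing genes and of each marker list (number of genes in brackets) in the 6 libraries. Colors give the stage, circles replicate 1 and triangles replicate 2. The 40 genes sum to between 3166 and 3629 FPKM in every library, whereas the haematopoietic list is highest in M-LMSCs.

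The levels of the 40 genes spanned a wide range, from Derl3 to Serpinh1. Together they summed to 3629 and 3166 FPKM at the adenoma stage, 3480 and 3339 at the pre-metastatic stage and 3273 and 3447 at the metastatic stage, which was 1.19% to 1.36% of a library's total. The A-LMSC libraries held both the highest and the lowest sum. Of the 40 genes, 16 were among the 1000 genes with the highest mean level and 2, Serpinh1 and P4hb, among the highest 100. Collagen-modifying genes made up 39.2% to 41.8% of the members' sum, disulfide enzymes 27.6% to 32.9%, and chaperones 15.1% to 19.9%. A mean of at least 1 FPKM was reached by 39 members, from 4.37 FPKM to 711 FPKM, and the exception was Derl3, a derlin of the degradation machinery, at 0.226 to 0.377 FPKM. In 28 of the 39, the highest library was under 1.5 times the lowest, and in 38 it was under 2 times. The exception, at 2.08 times, was P4ha3.

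**Figure D2:**
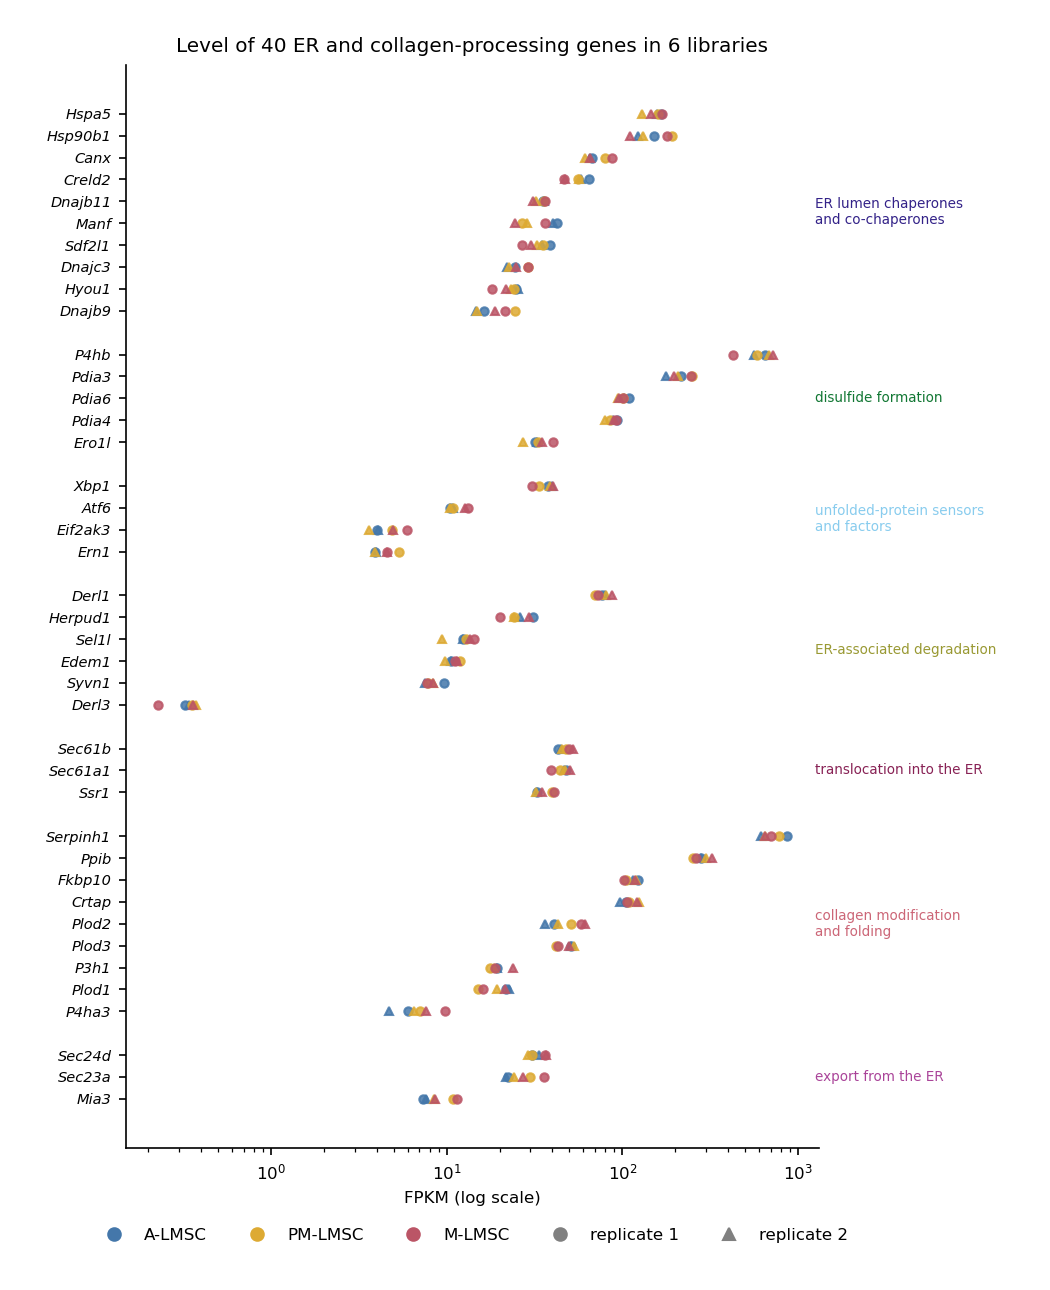
FPKM (log axis) of the 40 members in each of the 6 libraries, grouped by role and ordered by mean within a role. Colors give the stage, circles replicate 1 and triangles replicate 2. For most genes the points of the 3 stages lie on each other, and Derl3 sits far below the rest.

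Between A-LMSCs and the later stages, no member passed limma's test on log2(FPKM + 1) with one mean per stage, at an adjusted p under 0.05 over the 10279 genes tested. The number called was 0 of 39 for PM-LMSCs against A-LMSCs (background 0.0389% of all genes tested), 0 for M-LMSCs against A-LMSCs (0.0681%), 0 for M-LMSCs against PM-LMSCs (0.0292%) and 0 for the mean of both later stages against A-LMSCs (0.126%). At an unadjusted p under 0.05 the counts were 1, 8, 4 and 5 of 39, beside 6.53%, 14.6%, 8.94% and 11.2% of all genes tested. The replicate number was also fitted as a block, since same-numbered libraries deviated together. The labels do not say that the numbers pair the libraries, and this ground for the block comes from the same data. With the number as a block, limma called 2 members in M-LMSCs against A-LMSCs, Plod2 and P4ha3, both higher (background 3.92%). The blocked count was 0 for PM-LMSCs against A-LMSCs (0.292%), for M-LMSCs against PM-LMSCs (0.418%) and for both later stages (2.05%). With the block, an unadjusted p under 0.05 was reached by 5, 11, 8 and 9 members in the order given first, beside 13.8%, 24.3%, 16% and 20.8% of all genes tested. Both later stages share the A-LMSC libraries as their reference, so these comparisons are not independent.

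The median log2 fold change of the 39 members was −0.04 for PM-LMSCs against A-LMSCs and 0.05 for M-LMSCs against A-LMSCs, beside 0.01 and 0.03 over all genes tested. It was 0.06 for M-LMSCs against PM-LMSCs (all genes −0.00) and 0.01 for both later stages (all genes 0.02). In M-LMSCs the members ranged from −0.46 for Manf to 0.62 for Plod2, and the median was 0.12 when A-LMSC replicate 1 was left out and 0.0049 with median centering. The median for PM-LMSCs against A-LMSCs was 0.01 without PM-LMSC replicate 2, that for M-LMSCs against PM-LMSCs was 0.11 without PM-LMSC replicate 1, and that for both later stages was −0.03 with median centering. The 95% interval of the M-LMSC change lay within a doubling or halving, that is within ±1 on the log2 scale, for 38 of the 39 members and for 93.6% of all genes tested. For the other 3 comparisons that number was 38, 39 and 39 in the order given above, the exceptions being P4ha3 in M-LMSCs and Manf in PM-LMSCs, whose intervals ended just past these bounds. All log2 fold changes are of FPKM + 1, which understates the change of the less abundant members such as P4ha3.

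**Figure D3:**
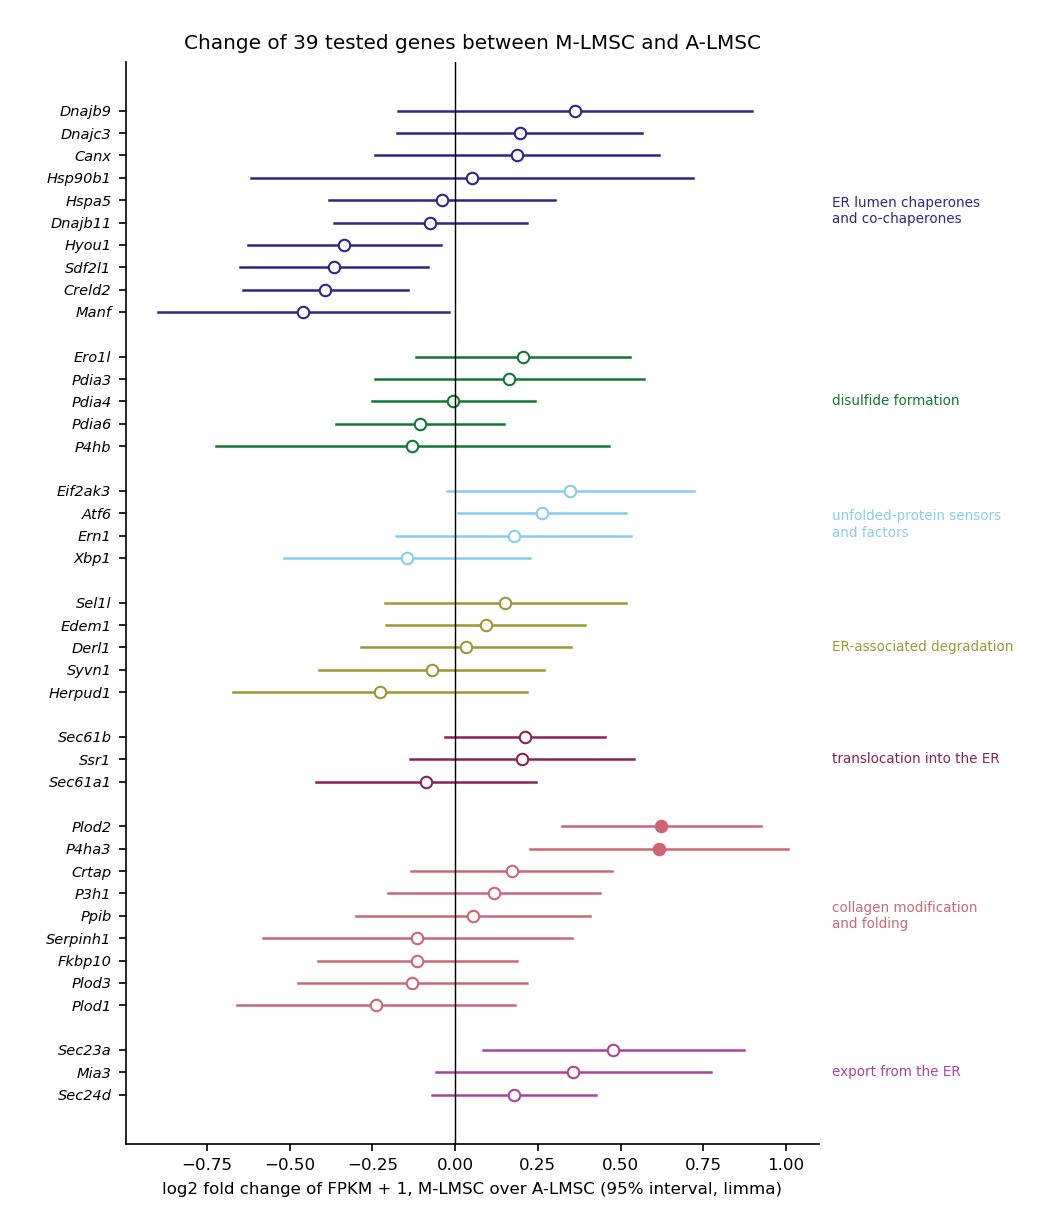
Log2 fold change (FPKM + 1) of the 39 tested members in M-LMSCs over A-LMSCs, grouped by role, with 95% limma intervals from the fit without the block. Filled points, Plod2 and P4ha3, passed an adjusted p of 0.05 with the replicate block, and open points did not. Plod2 and P4ha3 lie at 0.62, and Manf is lowest at −0.46.

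The 2 members called with the block, of 39 tested, were the collagen-modifying enzymes Plod2 and P4ha3, both higher in M-LMSCs. That count is near the 3.92% of all genes tested that were called there in either direction (403 genes, 234 of them higher). It is not read as a result about the role. Plod2 (ENSMUSG00000032374, chr9:92542223-92608428) encodes the lysyl hydroxylase that acts on the collagen telopeptides and so sets the kind of cross-link. It was measured at 40.8 and 36.3 FPKM at the adenoma stage, 50.9 and 43.1 at the pre-metastatic stage and 58.5 and 61.3 at the metastatic stage. The stages did not overlap, and each stage lay above the one before. In M-LMSCs Plod2 was 1.55-fold its A-LMSC mean, a log2 fold change of 0.62 ± 0.13 (SE), with an adjusted p of 0.117 from limma and of 0.0343 with the replicate block (0.0343 to 0.698 over the alternatives). The blocked p was 0.0901, with a log2 fold change of 0.49, after each library's trend on GC content and gene length was removed. Plod2 shares 346 exonic bases with Gm38391 on the other strand, and the strand setting of the counting is not given in the sources used here.

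P4ha3 (ENSMUSG00000051048, chr7:100285520-100319699), an alpha subunit of prolyl 4-hydroxylase, showed the same order at a lower level. It was at 6.01 and 4.72 FPKM at the adenoma stage, 7.10 and 6.52 at the pre-metastatic stage and 9.85 and 7.68 at the metastatic stage. No library of a later stage fell to the level of an earlier one, and replicate 1 was the higher one at each stage. The M-LMSC mean was 1.63-fold that of A-LMSCs, a log2 fold change of 0.62 ± 0.16 (SE) with an adjusted p of 0.176 from limma, 0.0337 with the block, and 0.0347 with the block and the GC and length correction (0.0337 to 0.882 over the alternatives). Against PM-LMSCs, the changes were 0.35 ± 0.13 for Plod2 (adjusted p = 0.507, limma) and 0.31 ± 0.16 for P4ha3 (adjusted p = 0.643), and in PM-LMSCs against A-LMSCs 0.28 ± 0.13 (adjusted p = 0.797) and 0.30 ± 0.16 (adjusted p = 0.840). For both later stages together the change was 0.45 ± 0.11 for Plod2 and 0.46 ± 0.14 for P4ha3, with adjusted p values of 0.225 and 0.305 from limma, and of 0.07 and 0.0636 with the block. When any 1 library was left out, the M-LMSC change against A-LMSCs lay between 0.54 and 0.71 for Plod2 and between 0.45 and 0.78 for P4ha3. The smaller steps moved more. Against PM-LMSCs, Plod2 was at 0.23 without PM-LMSC replicate 2, and P4ha3 at 0.15 without M-LMSC replicate 1 and 0.47 without M-LMSC replicate 2. In PM-LMSCs against A-LMSCs, Plod2 was at 0.16 without PM-LMSC replicate 1 and P4ha3 at 0.16 without A-LMSC replicate 2.

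The other 7 collagen-modifying members were not called. Plod1, the lysyl hydroxylase of the helical part of collagen, was at 21.7 and 22.6 FPKM at the adenoma stage, 15.1 and 19.4 at the pre-metastatic stage and 16.1 and 21.5 at the metastatic stage. All 4 later libraries lay under both A-LMSC libraries, and the log2 fold change of both later stages was −0.30 ± 0.15 (SE), with an adjusted p of 0.516 (limma), and −0.35 ± 0.18 in PM-LMSCs (adjusted p = 0.821). For both later stages Plod1 was at −0.20 without M-LMSC replicate 1, and in PM-LMSCs at −0.18 without PM-LMSC replicate 1. The ratio of Plod2 to Plod1 in FPKM was 1.88 and 1.61 in A-LMSCs, 3.37 and 2.23 in PM-LMSCs, and 3.64 and 2.85 in M-LMSCs, with no overlap between A-LMSCs and the later stages. That ratio was chosen after the values were seen and has no test.

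Plod3, which can also add sugars to hydroxylysine, lay between 41.7 and 53.0 FPKM with overlapping later stages. Crtap, P3h1 and Ppib form the prolyl 3-hydroxylase complex. Crtap was at 105 and 97.2 FPKM at the adenoma stage and between 106 and 124 FPKM in the 4 later libraries, a log2 fold change of 0.18 ± 0.11 (SE) for both later stages, with an adjusted p of 0.557 (limma), and 0.20 ± 0.13 in PM-LMSCs (adjusted p = 0.859), where it was 0.10 without PM-LMSC replicate 2. P3h1 lay between 17.7 and 23.8 FPKM, and Ppib between 253 and 323 FPKM. Ppib shares 825 bases with Snx22 on the other strand and 278 bases with a near-identical copy, and its value is uncertain to that extent. Plod3 (529 bases), Sec61a1 (549 bases), Eif2ak3 (485 bases), Hsp90b1 (415 bases) and Fkbp10 (193 bases) also share exonic bases with genes on the other strand. Fkbp10, a collagen prolyl isomerase, lay between 103 and 123 FPKM. Serpinh1, the collagen chaperone and the most abundant member, was at 871 and 612 FPKM at the adenoma stage, 778 and 652 at the pre-metastatic stage and 706 and 645 at the metastatic stage, so that the A-LMSC libraries alone spanned all the others.

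**Figure D4:**
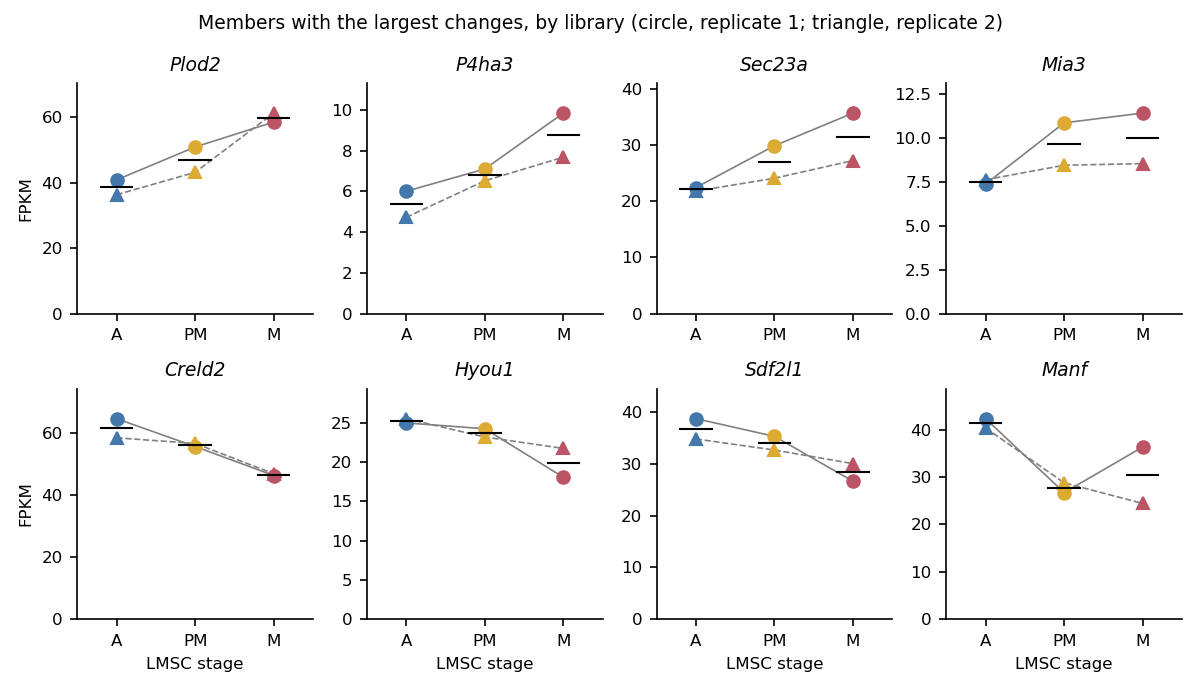
FPKM of 8 members by stage (axes start at 0). Lines join libraries with the same replicate number (circles, replicate 1; triangles, replicate 2), and black bars are stage means. Plod2, P4ha3, Sec23a and Mia3 are lowest in A-LMSCs, Creld2 and Hyou1 are lower at each stage than at the one before, and the M-LMSC libraries of Manf are at 36.4 and 24.4 FPKM.

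None of the 3 export genes was called. All 3 lay above the adenoma stage in both M-LMSC libraries, as did 27.1% of all genes tested. Sec23a, the inner COPII coat subunit that drives the GTPase Sar1, was at 22.5 and 21.8 FPKM at the adenoma stage, 29.9 and 24.1 at the pre-metastatic stage and 35.8 and 27.3 at the metastatic stage. The later stages did not overlap with A-LMSCs but did with each other. Its log2 fold change in M-LMSCs was 0.48 ± 0.16 (SE), with an adjusted p of 0.269 from limma and 0.0719 with the block, and in PM-LMSCs it was 0.27 ± 0.16 (adjusted p = 0.858). For both later stages it was 0.37 ± 0.14 (adjusted p = 0.418). Without replicate 1 of the later stage compared, the Sec23a change was 0.29 in M-LMSCs and 0.12 in PM-LMSCs, and without replicate 2 it was 0.67 and 0.42. Sec23a shares 431 bases with Gm17529 on the other strand. Mia3, the procollagen cargo receptor, was at 7.38 and 7.62 FPKM at the adenoma stage, 10.9 and 8.45 at the pre-metastatic stage and 11.4 and 8.54 at the metastatic stage. It too was lowest in both A-LMSC libraries, and its changes were 0.32 ± 0.17 in PM-LMSCs (adjusted p = 0.840, limma) and 0.36 ± 0.17 in M-LMSCs (adjusted p = 0.395), and for both later stages 0.34 ± 0.15 (adjusted p = 0.469). Without replicate 1 of the later stage compared, Mia3 was at 0.15 in PM-LMSCs and 0.17 in M-LMSCs, and without replicate 2 at 0.48 and 0.55.

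Sec24d, a cargo-binding COPII subunit, was at 30.8 and 33.3 FPKM at the adenoma stage, 30.8 and 29.0 at the pre-metastatic stage and 36.2 and 36.5 at the metastatic stage. The M-LMSC libraries were highest and the PM-LMSC libraries lowest, the higher of them only just under A-LMSC replicate 1. Its difference between M-LMSCs and PM-LMSCs was 0.28 ± 0.10 (SE), with an adjusted p of 0.517 (limma).

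None of the 10 ER lumen chaperones and co-chaperones was called. In M-LMSCs, 4 of them (Creld2, Hyou1, Sdf2l1 and Manf) lay below both A-LMSC libraries, as did 24.4% of all genes tested, and 2 (Dnajb9 and Dnajc3) lay above both, as did 27.1%. Hspa5 (BiP), the central Hsp70 chaperone of the ER and a standard readout of the unfolded protein response, was at 165 and 158 FPKM at the adenoma stage, 159 and 129 at the pre-metastatic stage and 169 and 146 at the metastatic stage. The stages overlapped, and the 95% limma interval of its M-LMSC change ran from −0.38 to 0.30 on the log2 scale. Hsp90b1 (GRP94), the Hsp90 chaperone of the ER, was at 152 and 123, 193 and 131, and 181 and 111 FPKM in the same order, so that replicates 1 and 2 differed more than the stages did. Canx, the lectin chaperone calnexin, was at 61.2 to 86.8 FPKM, and the Hsp40 co-chaperone Dnajb11 at 31.1 to 36.5 FPKM. Dnajc3, another co-chaperone, was at 24.4 and 22.1, 29.2 and 22.6, and 28.9 and 24.7 FPKM in the same order. Dnajb9, another Hsp40 protein and an IRE1 target, was at 16.3 and 14.6 FPKM at the adenoma stage and 21.4 and 18.9 FPKM at the metastatic stage, and its PM-LMSC values, 24.6 and 14.8 FPKM, overlapped with both. Its change in M-LMSCs was 0.36 ± 0.22 (SE), with an adjusted p of 0.476 (limma).

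Creld2 (ENSMUSG00000023272, chr15:88819646-88826683), an ER protein inducible by stress, was at 64.7 and 58.5 FPKM at the adenoma stage, 55.7 and 56.7 at the pre-metastatic stage and 46.4 and 46.9 at the metastatic stage, lower at each stage than at the one before. The M-LMSC change was −0.39 ± 0.10 (SE), a mean 0.757 of that in A-LMSCs, with an adjusted p of 0.179 from limma and 0.0809 with the block. It was −0.13 ± 0.10 in PM-LMSCs (adjusted p = 0.868, limma; −0.06 without A-LMSC replicate 1 and −0.20 without A-LMSC replicate 2), −0.26 ± 0.10 from PM-LMSCs to M-LMSCs (adjusted p = 0.545) and −0.26 ± 0.09 for both later stages (adjusted p = 0.366). Hyou1, the large Hsp70-related partner of BiP, showed the same stepwise order, at 24.98 and 25.5, 24.2 and 23.2, and 18.1 and 21.7 FPKM. Its change in M-LMSCs was −0.33 ± 0.12 (SE), with an adjusted p of 0.286 (limma), and it was −0.25 ± 0.12 against PM-LMSCs (adjusted p = 0.624) and −0.21 ± 0.11 for both later stages (adjusted p = 0.510). Without M-LMSC replicate 1 the M-LMSC change of Hyou1 was −0.21, and that against PM-LMSCs was −0.12 (−0.37 without M-LMSC replicate 2). Sdf2l1, a component of an ER chaperone complex, was at 38.8 and 34.9, 35.4 and 32.7, and 26.7 and 30.1 FPKM, with M-LMSCs under the other stages. Its change in M-LMSCs was −0.37 ± 0.12 (SE, adjusted p = 0.247, limma), and it was −0.26 ± 0.12 against PM-LMSCs (adjusted p = 0.604). With the block and the GC and length correction these Sdf2l1 changes were −0.25 and −0.13.

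Manf, a secreted protein of the ER lumen induced by ER stress, was at 42.4 and 40.4 FPKM at the adenoma stage, 26.7 and 28.8 at the pre-metastatic stage and 36.4 and 24.4 at the metastatic stage. All 4 later libraries were under both A-LMSC libraries, and the M-LMSC libraries lay on either side of the PM-LMSC ones. The log2 fold change was −0.56 ± 0.18 (SE) in PM-LMSCs (adjusted p = 0.598, limma), −0.46 ± 0.18 in M-LMSCs (adjusted p = 0.325) and −0.51 ± 0.16 for both later stages (adjusted p = 0.313). Without M-LMSC replicate 1 the latter was −0.65, with an adjusted p of 0.0485 (0.0485 to 0.999 over the alternatives), and without M-LMSC replicate 2 it was −0.37. The M-LMSC change was −0.74 without replicate 1 and −0.18 without replicate 2. Manf shares 312 exonic bases with genes on the other strand.

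None of the 5 disulfide enzymes was called. P4hb, protein disulfide isomerase and the beta subunit of prolyl 4-hydroxylase, was at 649 and 563 FPKM at the adenoma stage, 586 and 688 at the pre-metastatic stage and 426 and 716 at the metastatic stage. The M-LMSC libraries held the lowest and the highest value. Pdia3, the isomerase that works with calnexin, was at 178 to 249 FPKM, and Pdia4 at 79.2 to 93.5 FPKM with PM-LMSCs below both other stages. The latter's change in PM-LMSCs was −0.15 ± 0.10 (SE), with an adjusted p of 0.859 (limma), and was −0.10 without PM-LMSC replicate 2. Pdia6 was at 109.6 and 103 FPKM at the adenoma stage and between 94.3 and 101 FPKM later. Ero1l, the oxidase that recharges these enzymes, was at 31.9 and 32.6 FPKM at the adenoma stage, 33.0 and 27.2 at the pre-metastatic stage and 40.1 and 34.7 at the metastatic stage, highest in the last. Its difference between M-LMSCs and PM-LMSCs was 0.31 ± 0.13 (SE), with an adjusted p of 0.578 (limma), and was 0.17 without PM-LMSC replicate 2 and 0.20 without M-LMSC replicate 1.

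The 4 sensors and factors were not called, and the kinases among them were expressed at low levels. Eif2ak3, the PERK kinase, was at 3.99 and 4.09 FPKM at the adenoma stage, 4.86 and 3.63 at the pre-metastatic stage and 5.94 and 4.93 at the metastatic stage, and its M-LMSC change was 0.35 ± 0.16 (SE, adjusted p = 0.361, limma) and its difference from PM-LMSCs 0.30 ± 0.16 (adjusted p = 0.646). The latter was 0.47 without PM-LMSC replicate 1, 0.13 without PM-LMSC replicate 2 and 0.19 without M-LMSC replicate 1. Atf6 was at 10.4 and 10.9 FPKM at the adenoma stage, 10.9 and 10.5 at the pre-metastatic stage and 13.3 and 12.7 at the metastatic stage. Both were highest in the 2 M-LMSC libraries, and Atf6 differed from PM-LMSCs by 0.25 ± 0.11 (SE), with an adjusted p of 0.557 (limma). Ern1 lay between 3.91 and 5.34 FPKM. Xbp1, whose mRNA IRE1 splices, lay between 30.5 and 40.2 FPKM with the stages overlapping.

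None of the 8 degradation and translocation genes tested was called. Herpud1, a scaffold of the ubiquitin ligase complex that is induced by ER stress, was at 31.2 and 26.3 FPKM at the adenoma stage, 24.2 and 24.1 at the pre-metastatic stage and 20.2 and 29.4 at the metastatic stage. Only the PM-LMSC libraries lay apart from A-LMSCs, by −0.24 ± 0.19 (SE, adjusted p = 0.861, limma), which was −0.12 without A-LMSC replicate 1 and −0.36 without A-LMSC replicate 2. Sel1l, the adaptor of that ligase, was at 9.42 to 14.2 FPKM with M-LMSCs highest, and differed from PM-LMSCs by 0.31 ± 0.15 (SE, adjusted p = 0.624, limma). That difference was 0.52 without PM-LMSC replicate 1 and 0.11 without PM-LMSC replicate 2. The ligase Syvn1 (HRD1) lay between 7.52 and 9.68 FPKM, the mannose-trimming factor Edem1 between 9.78 and 11.9 FPKM, and the derlin Derl1 between 70.0 and 87.2 FPKM. Derl1 has a near-identical copy over 652 bases. Of the translocon genes, Sec61a1 lay between 39.1 and 50.1 FPKM and Ssr1 between 32.1 and 40.8 FPKM. Sec61b was at 43.1 and 44.9, 47.9 and 45.2, and 49.99 and 52.2 FPKM, a stepwise order with a change of 0.14 ± 0.09 (SE) for both later stages (adjusted p = 0.561, limma), but 3 near-identical copies make its value uncertain.

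Members whose libraries did not overlap between stages were counted beside the share of all genes tested that did so. In PM-LMSCs 6 of the 39 lay above both A-LMSC libraries (background 19.6% of genes tested) and 9 below (19.7%). In M-LMSCs 16 lay above (27.1%) and 7 below (24.4%). Against PM-LMSCs, 10 members were higher in M-LMSCs (17.8%) and 3 lower (16.7%). All 4 later libraries lay above A-LMSCs in 6 members, P4ha3, Plod2, Sec23a, Mia3, Crtap and Sec61b (10.7%), and below in 5, Manf, Plod1, Creld2, Hyou1 and Pdia6 (10.7%). A stepwise order without overlap was seen upward in 3 members, Sec61b, P4ha3 and Plod2 (2.66%), and downward in 2, Hyou1 and Creld2 (3.60%). The A-LMSC libraries were closer to each other than those of the later stages, with a median gap over the members of 0.07 on the log2 scale, beside 0.23 in PM-LMSCs and 0.21 in M-LMSCs.

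Some members differed by replicate number at every stage. Of the 39, 12 were higher in replicate 1 at all 3 stages, among them Hspa5, Hsp90b1, Canx, Dnajb9, Dnajc3, Pdia3 and Serpinh1, and 5 were higher in replicate 2, namely Xbp1, Derl1, Plod1, Plod3 and Ppib. Over all genes tested these shares were 26.0% and 21.3%, and for the members 30.8% and 12.8%. What the numbers stand for is not given in the labels.

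The promoter elements were set beside the changes as a description. The 9 tested members with an ERSE or ERSE-II had a median log2 fold change of −0.07 in M-LMSCs, from −0.39 (Creld2) to 0.19, and the 23 tested members with a window and neither element had a median of 0.16. Together the 10 genes with an element summed to 659.6 and 599 FPKM at the adenoma stage, 685 and 559 at the pre-metastatic stage and 678 and 559.5 at the metastatic stage, so that replicates differed more than stages. Of the 4 chaperone-group members lowest in M-LMSCs by the test's estimate, only Creld2 had a match, Sdf2l1 had a window without one, and Hyou1 and Manf had no window.

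Other genes of the same pathways were also examined, and limma called 0 of them without the block and 3 with it, namely Nupr1, Col4a1 and Col4a2. Of the 22 other ER folding genes 0 were called without or with the block, the median M-LMSC change was −0.02, and 0 (with the block, 3) had an unadjusted p under 0.05 in M-LMSCs, beside 14.6% (with the block, 24.3%) of all genes tested. Calr, the lectin chaperone calreticulin, was at 602 and 635 FPKM at the adenoma stage and between 465 and 544 FPKM in the 4 later libraries, a difference of −0.28 for both later stages (adjusted p = 0.428, limma). Calu, a calcium-binding ER protein, overlapped between all stages at 47.5 to 84.5 FPKM (0.30, adjusted p = 0.553). Of the 11 genes of the PERK branch, Nupr1, a stress-induced chromatin protein, was at 14.7 and 13.1, 15.6 and 15.3, and 21.8 and 20.5 FPKM. Its M-LMSC mean was 1.52-fold that of the adenoma stage (log2 fold change 0.57), with an adjusted p of 0.114 from limma and 0.0302 with the block. The median of that branch was −0.02 in M-LMSCs, and 1 gene (with the block, 2) had an unadjusted p under 0.05. Atf4, the transcription factor at its center, was at 171.5 and 183, 142.3 and 169, and 149 and 188 FPKM, and was added after its values were seen. Cebpb, a transcription factor at 99.6 to 165 FPKM in 5 libraries, was at 10.1 FPKM in PM-LMSC replicate 2 (−0.61 for both later stages, adjusted p = 0.794). Without or with the block, 0 of the 24 other degradation and translocation genes were called, their median in M-LMSCs was 0.02, and 3 (with the block, 6) had an unadjusted p under 0.05. The estimates for both later stages were 0.40 for Sec62, of the translocation machinery (adjusted p = 0.495, limma), and 0.31 for Creb3l2, a transcription factor of secretory capacity (adjusted p = 0.376).

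Of the 18 other collagen-processing genes 15 were tested, and 0 were called without or with the block. Their median M-LMSC change was 0.15. In M-LMSCs, without the block, 5 were higher and 0 lower at an unadjusted p under 0.05, beside 7.68% and 6.96% of all genes tested. With the block these counts were 6 and 1, beside 13.6% and 10.7%. In PM-LMSCs against A-LMSCs the median was 0.02. There 0 were higher and 3 lower without the block, beside 3.92% and 2.61%. P4ha2, another alpha subunit of prolyl 4-hydroxylase, was at 31.4 and 28.4 FPKM at the adenoma stage and between 18.1 and 25.1 FPKM later, below the adenoma stage where P4ha3 was above it, and its estimate for both later stages was −0.42 (adjusted p = 0.279, limma). Fkbp7, an ER prolyl isomerase, was at 5.29 and 5.10 FPKM and then between 5.77 and 8.47 FPKM, an estimate of 0.40 (adjusted p = 0.368). Of the 18 other COPII and cargo genes 17 were tested and 0 were called without or with the block. Their median M-LMSC change was 0.08. In M-LMSCs, without the block, 4 were higher and 0 lower at an unadjusted p under 0.05, beside 7.68% and 6.96% of all genes tested. The estimates for both later stages were 0.24 for Lman1, a lectin that carries glycoproteins out of the ER (adjusted p = 0.494, limma), and −0.27 for Kdelr1, a receptor that returns ER proteins (adjusted p = 0.635).

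The clients of this machinery were described last. Of 10 collagen and fibronectin genes, Col4a1 and Col4a2, the chains of basement membrane collagen IV, were called with the block in M-LMSCs and in both later stages. Col4a1 was at 225 and 210.3 FPKM at the adenoma stage, 332 and 338 at the pre-metastatic stage and 359.8 and 379 at the metastatic stage, with every later library above A-LMSCs. Its M-LMSC change was 0.76 on the log2 scale, with an adjusted p of 0.0840 from limma and 0.0204 with the block. Col4a2 followed at 184 and 172, 247 and 274, and 269 and 295 FPKM, with a change of 0.66 and an adjusted p of 0.101 from limma and 0.0284 with the block. Col1a1, the main fibrillar chain, was at 1092 and 1103 FPKM at the adenoma stage, 760.6 and 1039 at the pre-metastatic stage and 808 and 1472 at the metastatic stage, so that the metastatic-stage libraries lay on either side of the adenoma-stage ones. The median of the 10 in M-LMSCs was 0.24, and 3 (with the block, 4) had an unadjusted p under 0.05, beside 14.6% (with the block, 24.3%) of all genes tested. The 2 called with the block stand beside 3.92% of all genes tested.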

How the data were processed

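RNA of cultured LMSCs was sequenced by the authors, who deposited FPKM for 34745 genes. FPKM are scaled to gene length and to the library's total, so that the table holds no counts. The submitters' processing notes name TopHat2 2.0.9 and mm10. The counter, annotation and strand setting are not given in the sources used here. The columns of all 6 libraries were used, and other libraries of the study were not analysed here. FPKM of a library summed to 258249 to 271408. Depth was estimated from low values of genes with a single transcript, of which 96.9% to 97.4% fell within 0.1 of a whole fragment, and both depth and the few libraries limit precision for genes near 1 FPKM.

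The 10279 genes averaging 1 FPKM or more were tested on log2(FPKM + 1), a pseudocount of 1, using limma 3.58.1 (lmFit, eBayes with a trend) in R 4.3.3. Benjamini-Hochberg adjustment covered every gene tested. The fits were also run on simulated data, and the outcome is not given here. Between same-numbered libraries, deviations from the stage mean were correlated over all genes tested (A with PM 0.238, A with M 0.307, PM with M 0.491). Over the members tested, the correlations were 0.170, 0.144 and 0.697 in the same order. The block was used on that ground, though with 2 libraries per stage these values do not show what the numbers stand for. For the members, values with the replicate block are given where it changed a call or moved a count by over 1.5 times. For the markers and the other lists they are given for some comparisons only.

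A member was given a log2 fold change in a comparison where either fit called it, or where it was among the 10 largest changes of members whose libraries did not overlap. The interval of Hspa5 was added. A gene of another list was named where either fit called it, or where it was among the 2 largest changes of both later stages. The members and lists were chosen with earlier results of these data known. Alternatives were a pseudocount of 0.1, no filter on low values, quantile normalization, median centering, only the stages compared, the replicate block, the block with a GC content and gene length correction (lowess span 0.3), a minimum log2 fold change of 1, and leaving out each library. Coordinates, exon overlaps and near-identical copies (blastn 2.17.0, at least 95% identity over 200 bases) came from GENCODE M21 of GRCm38, which held 34267 of the identifiers. Promoter windows came from RefSeq, and protein sequences were not used here. Figures were drawn with matplotlib 3.10.9 (Python 3.11.15).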

Additional observations from a re-analysis of the deposited data

Results flagged for a closer look

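Sec24d, a cargo-binding subunit of the COPII coat, stood out because both PM-LMSC libraries lay under both A-LMSC libraries while both M-LMSC libraries lay above them. The M-LMSC and PM-LMSC means differed by 0.276 on the log2 scale of FPKM + 1. That the changes against A-LMSCs go opposite ways was not tested beyond limma's comparison of M-LMSCs with PM-LMSCs, in which the adjusted p was 0.517. PM-LMSC replicate 1 was at 30.77 FPKM and A-LMSC replicate 1 at 30.81 FPKM.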

How the results depend on the processing

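Of the 40 log2 fold changes given for members, 0 changed sign under the alternatives run, and 4 values in all passed the threshold under an alternative when they had not before. These were Plod2 and P4ha3 in M-LMSCs with the replicate block, P4ha3 with the block and the GC content and gene length correction (log2 fold change 0.72), and Manf in both later stages without M-LMSC replicate 1. Over the alternatives, the adjusted p of the M-LMSC change ranged from 0.0343 to 0.698 for Plod2 and from 0.0337 to 0.882 for P4ha3, and that of Manf in both later stages from 0.0485 to 0.999. The number of members called in M-LMSCs against A-LMSCs was 0, and 2 with the block and 1 with the block and correction. The replicate block changed no other member's call. The number called in both later stages was 0 to 1 over the fits that left out a library. The members' median in M-LMSCs ranged from 0.0538 to 0.1221 over those fits, the highest without A-LMSC replicate 1, and was 0.0049 with median centering and 0.0376 with the block and correction.

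The number of genes called moved far more. For PM-LMSCs against A-LMSCs it was 4, and 1 with no filter on low values, 21 with only the stages compared, 30 with the replicate block and 6 with the block and correction. For M-LMSCs against A-LMSCs it was 7, and 3 with no filter, 1 with only the stages compared, 403 with the block and 305 with the block and correction. For M-LMSCs against PM-LMSCs it was 3, and 43 with the block and 6 with the block and correction. For both later stages it was 13, and 0 with no filter, 7 with median centering, 211 with the block and 68 with the block and correction. Leaving out a library gave 1 to 28, 1 to 90, 2 to 25 and 0 to 93 genes in that order, and the higher counts came without an M-LMSC library (28 and 26, 85 and 90, 18 and 25, and 93 and 55, without replicates 1 and 2). The cause was not tested. Where 1 library is left at a stage, it is assumed to vary like the other stages. Quantile normalization and median centering moved the median of all genes by at most 0.05 on the log2 scale. With 2 libraries per stage, an uncalled change is not shown to be absent.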
